A study of Mus musculus with 6 samples.

Results

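The genes examined here encode the protein subunits of the mitochondrial respiratory chain and the ATP synthase that are read from nuclear chromosomes. They were chosen by a rule on the symbol, with earlier results of these data known. The rule takes protein-coding rows of the expression table whose name begins with Nduf and a subunit letter and number, is one of the 4 Sdh genes, or begins with Uqcr, with Cox and a number from 4 to 8, or with Atp5. The rule found 85 of the 19877 genes in the table, of which 39 belong to complex I, 4 to complex II, 8 to complex III, 17 to complex IV and 17 to complex V. Ndufa4 and Ndufa4l2 carry complex I names but were counted with complex IV, where the protein encoded by Ndufa4 is now placed.

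The study sequenced messenger RNA from mouse cells labelled ADSCs, with the cell genotype given as WT. In 3 libraries the cells had received a scrambled hairpin, and in 3 libraries a hairpin against Ifit1, which encodes an interferon-induced protein that binds viral RNA. Libraries 1, 2 and 3 of each group come from batches 1, 2 and 3. The p-values below are from a fit without a batch term, except where a batch block is named. The age, sex and strain of the mice, and whether the libraries are separate cultures or animals, are not given by the labels, so a p-value here reflects only the spread among these 6 libraries, which may be technical. The knockdown group rests on a hairpin whose sequence and number of clones the labels do not give.

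The respiratory chain passes electrons from NADH (complex I) and succinate (complex II) through coenzyme Q to complex III, then through cytochrome c to complex IV, which reduces oxygen. Complexes I, III and IV pump protons across the inner mitochondrial membrane, and complex V, the ATP synthase, uses the returning protons to make ATP. Each complex except II combines nuclear-encoded subunits with subunits encoded in mitochondrial DNA, and several complex IV subunits come in a general form and a form used mainly in muscle, lung, testis or under low oxygen.

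The recovered fragments per library ran from 32.2 to 40.6 M, and the median member had 2594 fragments per library. Ifit1 (chr19:34640871-34650009, GRCm38, plus strand) was at 4.90, 3.75 and 4.97 FPKM (fragments per kilobase per M fragments) in scrambled libraries 1, 2 and 3, and at 1.76, 1.48 and 1.51 FPKM in knockdown libraries 1, 2 and 3. The groups did not overlap, and Ifit1 fell by 1.27 ± 0.107 on the log2(FPKM + 0.5) scale (standard error; limma adjusted p = 5.71e-05). Of 12 stromal markers, 11 were tested, of which 3 rose and 8 fell, and their summed level was between 4217 and 4401 FPKM in scrambled and between 3575 and 3751 FPKM in knockdown libraries. Leukocyte markers summed to between 1.94 and 2.5 FPKM in scrambled and between 1.81 and 2.12 FPKM in knockdown libraries, with Ptprc, Itgam and Cd3e at 0 in every scrambled library. Most of this was Cd68, at 1.79 to 2.17 FPKM in scrambled and 1.63 to 2.02 FPKM in knockdown libraries. Adipocyte markers, nearly all Fabp4, summed to between 0.732 and 1.07 FPKM in scrambled and between 0.533 and 0.941 FPKM in knockdown libraries. The 4 endothelial markers summed to at most 0.0984 FPKM in any library. The 2 muscle markers and the 3 brown or beige adipocyte markers in the table were each at or below 0.222 FPKM when summed. The epithelial and mesothelial markers summed to between 18.6 and 26.3 FPKM in scrambled and to between 13.4 and 18.3 FPKM in knockdown libraries, nearly all of it Msln. In these bulk samples, fewer cells of a type and less RNA per cell cannot be told apart, and the part of the marker shifts in the results below was not tested.

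On the FPKM scale, most respiratory chain genes lay within a small margin of their control level. Of the 85 members, 82 passed the filter on low values (at least 1 FPKM in at least 3 libraries), and at an adjusted p under 0.05 in limma 8 were higher and 11 were lower with the Ifit1 hairpin. These 19 genes are 23.2% of those tested, where 51.0% of all 10311 tested genes passed the same threshold, 19.8% of them higher and 31.1% lower. Of the 11 lower, Cox6a2 and Cox7a1 passed the filter only through the scrambled group, so they could enter the test only by being higher there. With the 5 low paralogues of complex IV set aside, these 2 among them, 8 were higher and 9 lower, 21.2% of 80 members. The knockdown and scrambled libraries did not overlap for 28 members (34.1%), against 61.1% of all tested genes. With the low paralogues set aside, the groups did not overlap for 26 of the 80 members. The median member differed by 0.01 on the log2 scale and the median of all tested genes by −0.05, and the median size of the difference, without its sign, was 0.06 in members and 0.15 in all tested genes. The lower share of calls in members depended on scaling. With libraries centred on their median, 40 of the 82 members passed, close to the 51.3% of all tested genes.

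In 70 of the 82 tested members the knockdown mean lay within 10% of the scrambled mean (85.4%), compared with 46.7% of all tested genes. Most members are strongly expressed, so the same was counted in the 2232 tested genes with a mean between 30 and 350 FPKM. There, 59.8% passed the threshold, 54.5% lay within 10%, and the median size of the difference was 0.13. Among the 63 members that did not pass, 54 had a 95% confidence interval that lay wholly within ±0.2 on the log2 scale. Counts of a list carry no test of their own here and are given as a description.

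**Figure D1:**
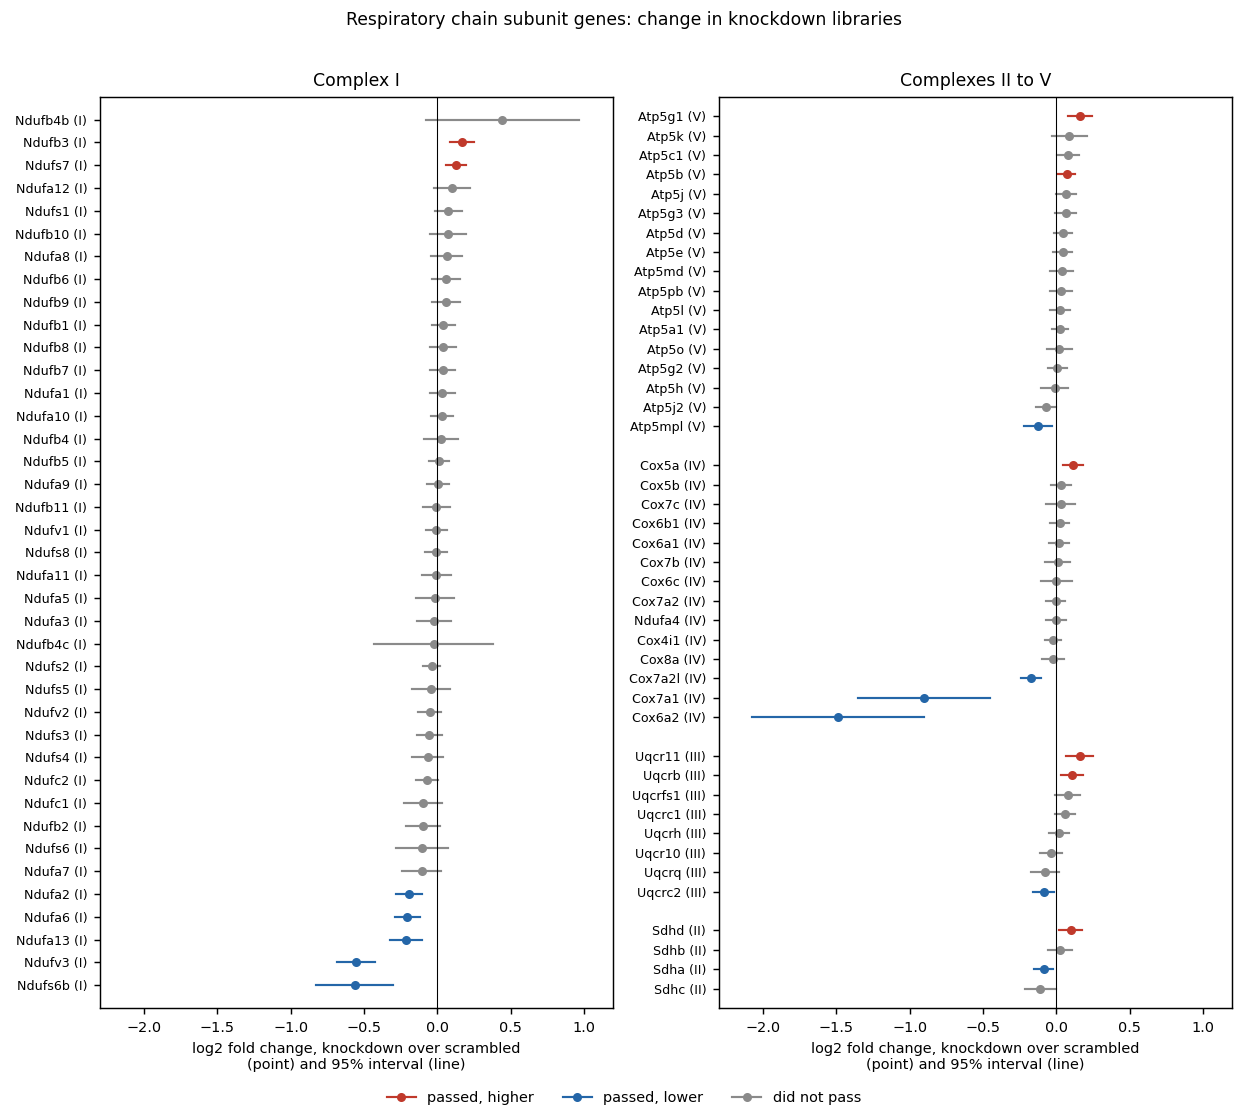
Each tested member has a point at its log2 fold change (knockdown over scrambled, on log2(FPKM + 0.5)) and a line for the limma 95% confidence interval, ordered within its complex, with complex I on the left and complexes II to V on the right. Red and blue mark members that passed higher and lower, and most points lie near 0, with Cox6a2, Cox7a1, Ndufv3 and Ndufs6b far to the left and Ndufb4b, which did not pass, far to the right.

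The summed FPKM of these genes differed little between the groups, but their share of all FPKM was lower with the Ifit1 hairpin. The FPKM of all 85 members summed to 8572, 8417 and 8483 in the scrambled libraries and to 8517, 8491 and 8647 in the knockdown libraries, and the groups overlapped on this scale. The sums for complex I were 2150, 2103 and 2139 FPKM in scrambled and 2098, 2042 and 2150 FPKM in knockdown libraries. The sums for complex IV were 2153, 2119 and 2125 FPKM in scrambled and 2104, 2116 and 2160 FPKM in knockdown libraries. Both of these also overlapped on the FPKM scale. For complex III the sums were 785.6, 776.3 and 779.8 FPKM in scrambled and 802.3, 802.2 and 804.7 FPKM in knockdown libraries, and for complex V they were 3193, 3132 and 3136 against 3218, 3246 and 3240 FPKM. In complexes III and V every knockdown library was above every scrambled one on the FPKM scale, though narrowly.

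The FPKM of all listed genes themselves summed to between 378147 and 380385 in scrambled and to between 389838 and 392722 in knockdown libraries. As a share of that total, the scale that TPM uses, all members together made up 2.25%, 2.22% and 2.24% in scrambled and 2.17%, 2.18% and 2.21% in knockdown libraries, so every knockdown library was lower. Complex I made up 0.565%, 0.555% and 0.566% in scrambled and 0.534%, 0.524% and 0.549% in knockdown libraries. Complex IV made up 0.566%, 0.559% and 0.562% in scrambled and 0.536%, 0.543% and 0.552% in knockdown libraries. The shares of complexes I, II and IV were lower in every knockdown library, while those of complexes III and V overlapped.

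**Figure D2:**
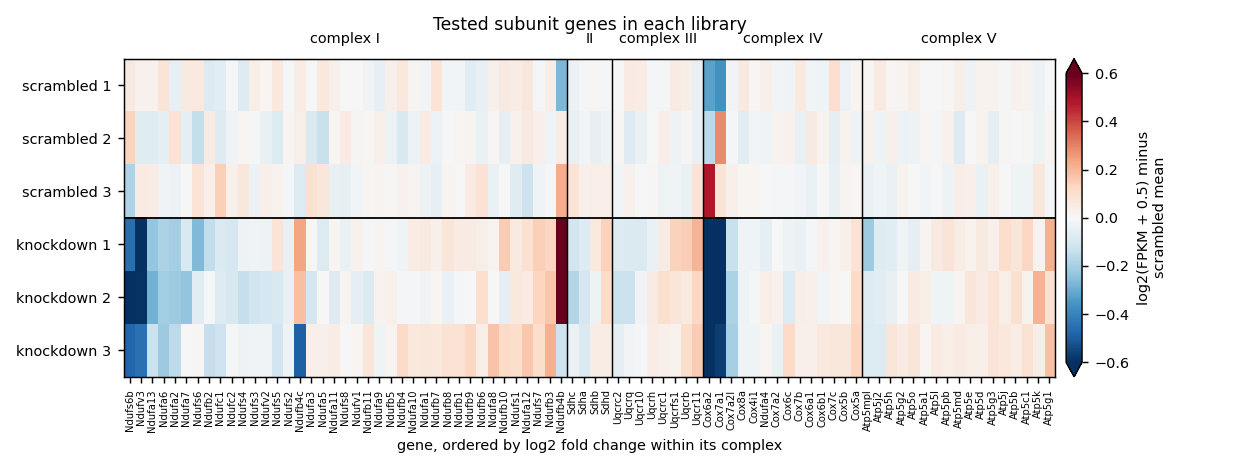
Each row is a library and each column a tested member, ordered by fold change within its complex, and the colour is log2(FPKM + 0.5) in that library minus the scrambled mean. Most columns are pale in all 6 rows, and those with dark knockdown rows include Ndufv3, Cox6a2 and Cox7a1.

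Complex I, the NADH dehydrogenase, had 39 tested members between 1.05 and 136.8 FPKM in scrambled cells, of which 2 rose, 5 fell and 32 did not pass. Calls made up 17.9% of this complex, against 51.0% of all tested genes. Of its 7 nuclear-encoded core subunits, which carry the flavin and the iron-sulfur clusters, 1 rose and none fell. Of its 32 other members, counted as accessory subunits, 1 rose and 5 fell. The 32 include Ndufs6b, which is among the 5, and Ndufb4c, the lowest of the complex, both listed by GENCODE as processed pseudogenes. They also include Ndufb4b, a near-copy of Ndufb4. The difference was −0.01 for the median gene in both groups of subunits.

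Ndufv3 (chr17:31520115-31531331, GRCm38, plus strand) encodes an accessory subunit of the arm that oxidises NADH, next to the flavin-carrying subunit encoded by Ndufv1. It was at 17.5, 16.3 and 17.7 FPKM in the scrambled libraries and at 10.9, 11.2 and 12.4 FPKM in the knockdown libraries. The groups were far apart, with a mean of 17.2 ± 0.783 FPKM in scrambled and 11.5 ± 0.824 FPKM in knockdown libraries (SD, n = 3 each). On the log2 scale Ndufv3 fell by 0.56 ± 0.057 (limma adjusted p = 0.000127), and the differences within batches 1, 2 and 3 were −0.66, −0.52 and −0.49. The FPKM of Ndufv3 divided by that of Ndufv1, a ratio that a single factor per library cannot move, was 0.277, 0.255 and 0.285 in scrambled and 0.170, 0.184 and 0.196 in knockdown libraries. Ndufv1 itself had a difference of −0.01 and did not pass (limma adjusted p = 0.883).

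A further 3 well-expressed accessory subunits fell by smaller amounts. Ndufa6, a small subunit that binds the mitochondrial acyl carrier protein, was at 118.5, 107.6 and 110.2 FPKM in scrambled and at 98.3, 96.8 and 96.3 FPKM in knockdown libraries. Ndufa13, also known as GRIM-19 and required for assembly of the membrane arm, was at 59.9, 56.0 and 60.8 FPKM in scrambled and at 50.1, 48.3 and 53.8 FPKM in knockdown libraries. Ndufa2, an accessory subunit of the NADH-oxidising arm, was at 90.2, 99.2 and 91.0 FPKM in scrambled and at 80.9, 80.2 and 83.8 FPKM in knockdown libraries. For these genes every knockdown library was below every scrambled one. The log2 differences were −0.20 ± 0.038 for Ndufa6, −0.21 ± 0.047 for Ndufa13 and −0.19 ± 0.040 for Ndufa2, with limma adjusted p of 0.00219, 0.00521 and 0.00412.

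A pair of complex I genes rose, one for an accessory and one for a core subunit. Ndufb3, an accessory subunit at the far end of the membrane arm, was at 29.9, 28.6 and 28.9 FPKM in scrambled and at 31.9, 32.7 and 33.8 FPKM in knockdown libraries. Ndufs7, the core subunit that carries the last iron-sulfur cluster before coenzyme Q, was at 52.4, 53.9 and 52.1 FPKM in scrambled and at 58.4, 57.8 and 56.9 FPKM in knockdown libraries. Neither gene's groups overlapped. Ndufb3 rose by 0.17 ± 0.036 (limma adjusted p = 0.00447) and Ndufs7 by 0.13 ± 0.029 (limma adjusted p = 0.00654) on the log2 scale. The call for Ndufs7 was lost when a trend on level and gene length was removed (difference 0.075, limma adjusted p = 0.0635).

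Some complex I rows are near-copies of another member, so reads may have been split between them. Ndufs6b, which GENCODE lists as a processed pseudogene and the table as protein-coding, was at 2.32, 2.48 and 1.89 FPKM in scrambled and at 1.49, 1.10 and 1.46 FPKM in knockdown libraries. It fell by 0.56 ± 0.116 on the log2 scale (limma adjusted p = 0.00383), on 17 to 45 fragments per library. Its well-expressed relative Ndufs6 was at 44.2 FPKM in scrambled and 41.1 FPKM in knockdown libraries on average and did not pass (difference −0.11, limma adjusted p = 0.282). Ndufb4b had the highest difference of the complex, 0.44 ± 0.23, but its groups overlapped, since it was at 1.09, 1.48 and 1.73 FPKM in scrambled and at 2.42, 2.94 and 1.26 FPKM in knockdown libraries. It did not pass (limma adjusted p = 0.137), and it passed without knockdown library 3.

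**Figure D3:**
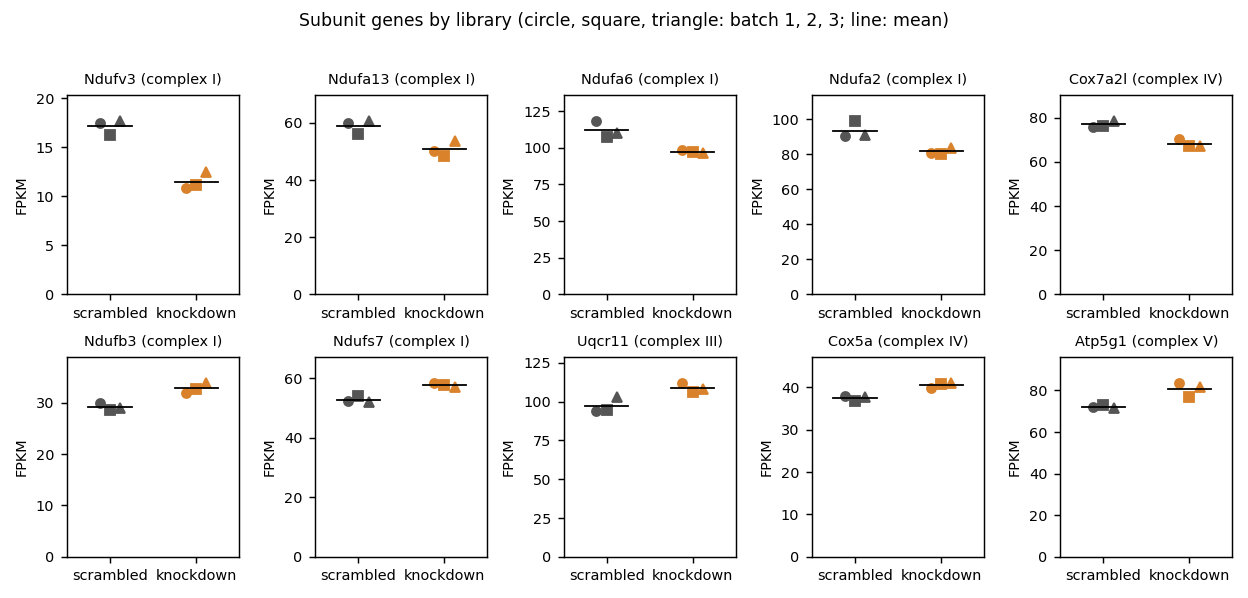
FPKM in each library for 10 members that passed the threshold, with circles, squares and triangles for batches 1, 2 and 3, a line at the group mean and each axis starting at 0. The knockdown libraries of Ndufv3 lie between 10.9 and 12.4 FPKM, all below its scrambled libraries at 16.3 to 17.7 FPKM, and the other genes shown differ by smaller margins.

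Complex II, succinate dehydrogenase, consists of 4 nuclear-encoded subunits, of which 1 rose, 1 fell and 2 did not pass. Sdha, the flavoprotein that oxidises succinate, was at 78.0, 77.8 and 80.5 FPKM in scrambled and at 74.7, 73.4 and 74.1 FPKM in knockdown libraries. It fell by 0.09 ± 0.027 on the log2 scale (limma adjusted p = 0.0264). Sdhd, a membrane anchor subunit, was at 80.6, 79.4 and 83.4 FPKM in scrambled and at 89.3, 87.8 and 83.6 FPKM in knockdown libraries, and rose by 0.10 ± 0.034 (limma adjusted p = 0.0398), with knockdown library 3 barely above the scrambled libraries. The ratio of Sdhd to Sdha within a library was 1.03, 1.02 and 1.04 in scrambled and 1.2, 1.2 and 1.13 in knockdown libraries, which did not overlap.

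The other two subunits of complex II did not pass. Sdhb, the iron-sulfur subunit, had a difference of 0.02 ± 0.036 (limma adjusted p = 0.612), and Sdhc, the other membrane anchor, went from 64.5 to 59.8 FPKM, a difference of −0.11 ± 0.046 (limma adjusted p = 0.0752). With batch as a block, the call for Sdhd was lost (limma adjusted p = 0.0597) and Sdhc passed as lower (limma adjusted p = 0.0175). Sdhc also passed as lower under quantile normalization, in TPM, with the level and length trend removed and without knockdown library 3 (limma adjusted p = 0.0403, 0.0202, 0.0173 and 0.0288). Under those 3 scalings none of the 4 genes was called higher and 2, Sdha and Sdhc, were called lower. The call for Sdha was lost with libraries centred on their median, and also when scrambled library 1 or 3 or knockdown library 2 was left out. That for Sdhd was lost without scrambled library 1 or 2 and without knockdown library 1 or 2. Without limma's variance trend both calls were lost (limma adjusted p = 0.07 for Sdha and 0.0881 for Sdhd). Without the filter on low values that for Sdhd was lost too (limma adjusted p = 0.078).

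Promoter sequence was available for 68 of the 85 members, as windows from 250 bases before to 50 bases after the gene start (RefSeq, build GRCm38.p6). Nuclear genes of the respiratory chain are classically described as targets of NRF1, which binds a palindromic GC-rich site, and of ETS-family factors such as GABP. An NRF1 site, spelled GCGC, then any base, then TGCGC, was found on either strand in 16 of the 68 member windows (23.5%) and in 4.78% of all 27025 windows. All windows are 1 per listed gene, expressed here or not. No comparison with genes of like level or GC content was made. The ETS letters CCGGAAG were found in 16 member windows (23.5%) and in 9.12% of all windows, and the 5 letters CCAAT in 29 (42.6%) and 37.9%. The letters ACGTG, the core of the hypoxia response element and also part of the E-box CACGTG, were found in 17 member windows (25%) and in 19.7% of all windows. NRF1 letters were present in 1 of the 7 windows of members that rose, in 2 of the 6 of members that fell and in 13 of the 54 of members that did not pass.

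An NRF1 match of each called member that holds one is shown (1 of the 3 in the Sdha window) because they occur in both directions of change, in the genes of the pair Sdha and Sdhd and in Ndufa6. They are written 5′ to 3′ along the gene's strand, with the NRF1 letters in capitals, and lie on the minus strand at chr15:82354249-82354278 for Ndufa6, chr13:74350231-74350260 for Sdha and chr9:50603909-50603938 for Sdhd. In Sdha and Sdhd the capitals are the site as read on the other strand. The capitals begin 23 bases after the RefSeq gene start in Ndufa6, and 10 and 79 bases before it in Sdha and Sdhd.
Ndufa6: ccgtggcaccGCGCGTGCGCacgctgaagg
Sdha: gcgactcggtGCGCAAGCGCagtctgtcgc
Sdhd: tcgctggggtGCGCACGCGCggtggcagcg
Stretches just before the start of Ndufv3, which fell, and Ndufb3, which rose, are shown because they had the smallest p among the members that fell and among those that rose, and their windows hold none of the NRF1 letters. They lie at chr17:31519995-31520114 and chr1:58586324-58586383, both on the plus strand, and capitals mark ATTGG, which is CCAAT read on the other strand.
Ndufv3: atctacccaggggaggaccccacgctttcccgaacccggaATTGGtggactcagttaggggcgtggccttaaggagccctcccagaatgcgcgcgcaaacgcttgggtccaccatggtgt
Ndufb3: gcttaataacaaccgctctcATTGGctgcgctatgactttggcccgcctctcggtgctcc
Over all windows of called members, the CCAAT letters were in 5 of the 6 of members that fell, in 3 of the 7 of members that rose and in 20 of the 54 of members that did not pass. Their share in all windows was 37.9%. Only 6 of the 11 members that fell had a window, and a link of these letters with the direction of change was not tested. In GENCODE, exons of a neighbouring gene also reach into the windows of Ndufv3 (Wdr4), Ndufb3 (Fam126b), Sdha (Ccdc127) and Sdhd (Timm8b), and a match is a description of letters and not a bound site.

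Complex III, which passes electrons from coenzyme Q to cytochrome c, had 8 tested members, of which 2 rose, 1 fell and 5 did not pass. Calls made up 37.5% of this complex, against 51.0% of all tested genes. Uqcr11, a small membrane subunit, was at 94.3, 94.4 and 103.2 FPKM in scrambled and at 112.1, 106.1 and 108.0 FPKM in knockdown libraries. Uqcrb, a subunit near the site where coenzyme Q is bound, was at 101.5, 99.7 and 96.4 FPKM in scrambled and at 109.9, 103.3 and 106.9 FPKM in knockdown libraries. Uqcrc2, a core subunit on the matrix side, was at 57.3, 57.8 and 56.6 FPKM in scrambled and at 54.2, 52.2 and 55.1 FPKM in knockdown libraries. The groups did not overlap in any of these genes, though they lay close together.

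On the log2 scale Uqcr11 rose by 0.16 ± 0.041 and Uqcrb by 0.11 ± 0.033, while Uqcrc2 fell by 0.09 ± 0.031, with limma adjusted p of 0.0105, 0.0266 and 0.0411. Uqcrc1, the partner core subunit of Uqcrc2, had a difference of 0.06 and did not pass (limma adjusted p = 0.133). The ratio of Uqcrc1 to Uqcrc2 within a library was 2.80, 2.88 and 2.79 in scrambled and 3.08, 3.31 and 2.99 in knockdown libraries. The call for Uqcrc2 was lost with the batch block (limma adjusted p = 0.0581) and without any 1 of the libraries other than knockdown 3, and that for Uqcrb was lost without scrambled library 2 or 3 or knockdown library 1. Both calls were also lost without limma's variance trend and with limma-voom, and that for Uqcrb without the filter on low values. Cyc1, which encodes the cytochrome c1 of the same complex but lies outside the naming rule, was at 129.8, 134.0 and 131.2 FPKM in scrambled and at 144.0, 143.7 and 145.9 FPKM in knockdown libraries. It rose by 0.13 ± 0.025 (limma adjusted p = 0.00257), which was lost only with the level and length trend removed.

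Complex IV, cytochrome c oxidase, had 17 members, of which 14 were tested, 1 rose and 3 fell. Calls made up 28.6% of its tested members, against 51.0% of all tested genes. Of the 3 that fell, Cox6a2 and Cox7a1 passed the filter only through the scrambled group, which leaves Cox7a2l. The general subunits of complex IV were among the most abundant transcripts of the chain, and 10 did not pass, though some did under another scaling. Cox4i1, the general form of the regulatory subunit 4, averaged 344.4 FPKM in scrambled and 339.2 FPKM in knockdown libraries, a difference of −0.02 with a 95% interval from −0.07 to 0.03 (limma adjusted p = 0.453). It was called lower under quantile normalization (−0.13), in TPM (−0.067) and with the level and length trend removed (−0.13), with limma adjusted p of 0.00182, 0.0348 and 0.00173. Cox7a2 averaged 90.8 and 90.6 FPKM (95% interval −0.07 to 0.06) and Ndufa4 225.6 and 225.3 FPKM (95% interval −0.07 to 0.07). The differences of Cox5b, Cox6a1, Cox6b1, Cox7b and Cox8a were 0.03, 0.02, 0.02, 0.01 and −0.02, none passed, and their signs changed with the scaling. After median centring Cox5b and Cox6b1 were called higher (limma adjusted p = 0.0234 and 0.0314), and with the trend removed Cox6a1, Cox8a and Ndufa4 were called lower (limma adjusted p = 0.0397, 0.0111 and 0.0251).

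The exceptions among the well-expressed members were Cox7a2l and Cox5a. Cox7a2l (chr17:83501918-83517330, GRCm38, minus strand), also called SCAF1, joins complexes III and IV into a supercomplex. It was at 75.9, 76.2 and 78.6 FPKM in scrambled and at 70.1, 67.3 and 67.0 FPKM in knockdown libraries, and fell by 0.17 ± 0.031 (limma adjusted p = 0.00183). The ratio of Cox7a2l to its paralogue Cox7a2 was 0.845, 0.826 and 0.870 in scrambled and 0.770, 0.728 and 0.757 in knockdown libraries. Cox5a, a subunit on the matrix side, was at 37.9, 36.7 and 37.7 FPKM in scrambled and at 39.8, 40.7 and 41.0 FPKM in knockdown libraries. It rose by 0.11 ± 0.031 (limma adjusted p = 0.0142), and its call was lost without scrambled library 2.

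The tissue-restricted forms of complex IV subunits were close to the detection limit. Cox6a2, the heart and skeletal muscle form of subunit 6a, was at 1.00, 1.18 and 2.12 FPKM in scrambled and at 0.453, 0.0467 and 0.0748 FPKM in knockdown libraries, which are 27, 29 and 53 fragments against 11, 1 and 2. Cox7a1, the muscle form of subunit 7a, was at 1.01, 1.86 and 1.55 FPKM in scrambled and at 0.530, 0.334 and 0.804 FPKM in knockdown libraries, which are 19, 32 and 27 fragments against 9, 5 and 15. In both genes every knockdown library was below every scrambled library. This follows from how they passed the filter, with every scrambled library at 1 FPKM or more and every knockdown library under it.

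Cox6a2 fell by 1.49 ± 0.257 (limma adjusted p = 0.00161) and Cox7a1 by 0.90 ± 0.198 (limma adjusted p = 0.00537). Both passed the filter only through the scrambled group, so they could enter the test only by being higher there. The size for Cox6a2 depends on the pseudocount and scaling, from −3.23 to −1.02 over the alternatives, and that for Cox7a1 ran from −1.36 to −0.52 and its call was lost under quantile normalization (limma adjusted p = 0.0539). Low genes in general tended the same way: of 3154 genes with a mean between 0.1 and 1.5 FPKM, 37.1% had every knockdown library below every scrambled one, and their median difference was −0.15.

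The 3 members that were not tested are also restricted forms. Ndufa4l2, a paralogue of Ndufa4 induced under low oxygen, had 23, 41 and 19 fragments in scrambled and 1, 1 and 0 in knockdown libraries. Cox6b2, the testis form of subunit 6b, had 12, 6 and 22 fragments in scrambled and 4, 1 and 7 in knockdown libraries, and these groups overlapped. Cox4i2, the lung and low-oxygen form of subunit 4, had 0 fragments in every scrambled library and 0, 4 and 1 in knockdown libraries. Without the filter, limma gave an adjusted p of 0.0072 for Ndufa4l2 (difference −1.09 ± 0.168) and of 0.133 for Cox6b2 (difference −0.63 ± 0.256). When the 5 low paralogues of complex IV were set aside, 8 of 80 members rose and 9 fell, with a median difference of 0.01. Cox8b was not among the rows.

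Complex V, the ATP synthase, had 17 tested members between 54.2 and 805.4 FPKM in scrambled cells, of which 2 rose, 1 fell and 14 did not pass. Calls made up 17.6% of this complex, against 51.0% of all tested genes. The differences in complex V ran from −0.13 to 0.16, with a median of 0.04. Atp5b, the catalytic beta subunit and the highest of all members, was at 820.0, 804.8 and 791.5 FPKM in scrambled and at 846.7, 861.4 and 830.0 FPKM in knockdown libraries. It rose by 0.07 ± 0.025 (limma adjusted p = 0.0441), and fell short of the threshold when any 1 library other than knockdown 3 was left out. Its partner Atp5a1, the alpha subunit, averaged 304.4 and 309.5 FPKM and did not pass (difference 0.02, limma adjusted p = 0.418). Atp5mpl, a small membrane subunit, was at 54.6, 55.2 and 52.7 FPKM in scrambled and at 46.6, 51.2 and 51.1 FPKM in knockdown libraries. It fell by 0.13 ± 0.042 (limma adjusted p = 0.0341), and its call was lost without scrambled library 1 or 2 or knockdown library 1. The calls for Atp5b and Atp5mpl were also lost without the filter on low values and without limma's variance trend. That for Atp5mpl was lost with limma-voom too.

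The proton-driven c-ring is encoded by 3 genes, Atp5g1, Atp5g2 and Atp5g3, that yield the same mature protein. Atp5g1 was at 72, 72.9 and 71.5 FPKM in scrambled and at 83.6, 76.8 and 81.6 FPKM in knockdown libraries, with no overlap, and rose by 0.16 ± 0.035 (limma adjusted p = 0.0055). Atp5g2 averaged 292.4 and 293.7 FPKM, a difference of 0.01 with a 95% interval from −0.06 to 0.07, and Atp5g3 averaged 166.9 and 174.3 FPKM (difference 0.06, limma adjusted p = 0.12). Atp5g2 was called lower with the level and length trend removed (limma adjusted p = 0.0187) and Atp5g3 higher after median centring (limma adjusted p = 0.00623). Atp5g1 supplied 13.4%, 14.0% and 13.3% of the summed c-ring FPKM in scrambled and 15.5%, 14.1% and 14.6% in knockdown libraries. Atp5g2 supplied 55.0%, 55.0% and 55.1% in scrambled and 53.1%, 53.5% and 54.0% in knockdown libraries. Both shares separated the groups, that of Atp5g1 only by 14.03% against 14.09%, while the share of Atp5g3 overlapped, at 31.6%, 31.0% and 31.7% against 31.5%, 32.4% and 31.4%. The ratio of Atp5g1 to Atp5g3 overlapped too. Reads from the coding part of these genes could be split among them. Atpif1, which encodes the inhibitor of ATP hydrolysis by the synthase and lies outside the naming rule, was at 57.6, 55.4 and 54.9 FPKM in scrambled and at 47.2, 48.1 and 50.2 FPKM in knockdown libraries. It fell by 0.21 ± 0.035 (limma adjusted p = 0.00143).

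Because most differences were a few percent, the number of calls depended on how the libraries were scaled. With libraries centred on their median, 32 members were higher and 8 lower, among them 12 higher and 0 lower in complex V. These are 40 calls among 82 members, close to the 51.3% called among all tested genes on that scale. After conversion to TPM, 4 were higher and 21 lower, and with a trend on level and gene length removed, 1 was higher and 25 lower. Those are 25 and 26 calls among 82 members, against 54.1% and 45.3% of all tested genes. Over all tested genes, 2046 were higher and 3209 lower as first fitted and 3001 and 2293 with median-centred libraries. The split was 2486 higher and 2256 lower under quantile normalization, 1540 and 4035 in TPM, and 2277 and 2389 with the trend removed. Under each of these scalings the median of all genes moved by at most 0.066. The calls for Atp5g1 and Ndufs7 were lost only with the trend removed, that for Uqcr11 also under quantile normalization, and that for Cox5a in TPM and with the trend removed. Those for Sdhd, Uqcrb and Atp5b were lost under quantile normalization, in TPM and with the trend removed, and those for Sdha, Uqcrc2 and Atp5mpl after median centring.

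Calls that did not depend on scaling were few. Over all 17 alternatives, wherever the gene was tested, Ndufv3, Ndufa13, Ndufa6, Ndufa2, Ndufs6b, Cox7a2l and Cox6a2 were lower and Ndufb3 was higher. Of these, Ndufs6b and Cox6a2 were not tested when a mean of at least 5 FPKM was required, and Cox6a2 passed the filter only through the scrambled group, so its call carries the limit given above. The ratios within a library given above for Ndufv3, Cox7a2l, Sdhd and Uqcrc1 cannot be moved by a single factor per library, though quantile normalization or a level and length correction can move them, and the pairs were chosen after their values were seen, and an exact permutation test of 3 against 3 libraries cannot go below a two-sided p of 0.1.

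**Figure D4:**
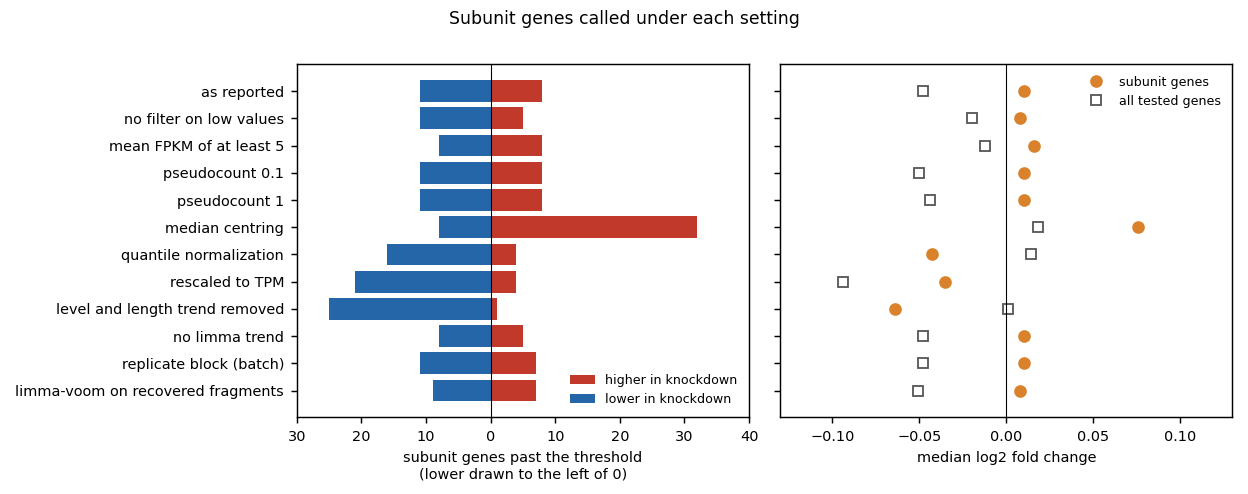
The left panel has a bar for the number of members called higher (right of 0) and lower (left of 0) as reported and under each alternative that kept all libraries, and the right panel has the median log2 fold change of the members (circles) and of all tested genes (squares). The bars change most with scaling, from 32 higher and 8 lower after median centring to 1 higher and 25 lower with the level and length trend removed.

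The 13 subunits encoded in mitochondrial DNA were listed separately, and 3 rose and none fell, with a median difference of 0.09. The share called was 23.1%, below the 51.0% of all tested genes, though this did not hold in every setting. ND1, a complex I core subunit, was at 2720, 2642 and 2764 FPKM in scrambled and at 3006, 3019 and 3247 FPKM in knockdown libraries, and rose by 0.19 ± 0.034 (limma adjusted p = 0.00209). ND2 and ND4, which form part of its proton-pumping arm, rose by 0.24 and 0.19 (limma adjusted p = 0.00729 and 0.0128). COX1, the catalytic subunit of complex IV, had a difference of −0.09 and did not pass (limma adjusted p = 0.0679). The calls for ND1, ND2 and ND4 were lost under quantile normalization and with the level and length trend removed, and those for ND2 and ND4 also without the filter on low values. With the batch block 6 of the 13 rose and 1, COX1, fell, and COX1 also passed as lower without knockdown library 3, in TPM, with the trend removed and with limma-voom. The list split into 7 higher and 0 lower after median centring, 1 and 1 under quantile normalization, 3 and 1 in TPM, and 0 and 1 with the trend removed. Of all tested genes, 50.7% passed with the batch block and 51.3% after median centring. The share of the 13 genes was not below that of all genes in these 2 settings. The library protocol captured mRNA on beads, and the 13 genes fell into 6 at 553 to 3967 FPKM and 7 at 3.35 to 42.6 FPKM.

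Cycs encodes cytochrome c, the carrier between complexes III and IV. It was at 29.1, 28.6 and 27.1 FPKM in scrambled and at 38.6, 38.9 and 35.1 FPKM in knockdown libraries, and rose by 0.40 ± 0.047 (limma adjusted p = 0.000237). Among the 14 tested genes of mobile carriers and coenzyme Q synthesis, 4 rose and 3 fell, with a median of 0.05. These are 7 calls among 14 genes, close to the 51.0% called among all tested genes. The split of the list was 7 higher and 2 lower after median centring and 7 and 1 under quantile normalization. It was 4 and 5 in TPM and 6 and 1 with the trend removed. Pdss1, which makes the side chain of coenzyme Q, rose from 3.65 to 4.99 FPKM (limma adjusted p = 0.00154). Coq9, a lipid-binding protein of coenzyme Q synthesis, fell from 19.2 to 16.1 FPKM (limma adjusted p = 0.00215), and Coq8b, at 1.54 FPKM in scrambled and 1.13 FPKM in knockdown libraries, also fell (limma adjusted p = 0.0126). The call for Coq8b did not hold under quantile normalization or with the trend removed.

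Of the 52 tested assembly factors, which build the complexes without staying in them, 10 rose and 9 fell, with a median of 0.00. The share called was 36.5%, below the 51.0% of all tested genes. Ndufaf4, a complex I assembly factor, was at 6.30, 6.06 and 5.81 FPKM in scrambled and at 9.66, 8.55 and 8.72 FPKM in knockdown libraries, and rose by 0.53 ± 0.058 (limma adjusted p = 0.000163). Sdhaf4, which helps insert the flavin-bearing subunit Sdha, was at 8.13, 8.06 and 6.95 FPKM in scrambled and at 5.33, 5.72 and 4.88 FPKM in knockdown libraries, and fell by 0.50 ± 0.076 (limma adjusted p = 0.00083). Neither gene's groups overlapped. Cox19, a copper-handling factor of complex IV, rose by 0.31 and Lrpprc, which stabilises mitochondrial mRNAs, by 0.24 (limma adjusted p = 0.000314 and 0.000462). These 4 genes passed the threshold in the same direction under every alternative, but the split of the list did not hold, with 16 higher and 4 lower once libraries were centred on their median and 18 higher and 2 lower under quantile normalization.

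Among 13 tested regulators of mitochondrial biogenesis, 4 rose and 1 fell, with a median of 0.04. The share called was 38.5%, below the 51.0% of all tested genes. In TPM 1 rose and 1 fell, and after median centring 6 rose and none fell. Pprc1, a member of the PGC-1 coactivator family, was at 26.2, 26.0 and 25.5 FPKM in scrambled and at 31.7, 32.6 and 31.1 FPKM in knockdown libraries, and rose by 0.29 ± 0.033 (limma adjusted p = 0.000202). Esrra, a nuclear receptor that acts with this family, and Polg, the mitochondrial DNA polymerase, rose by 0.13 each (limma adjusted p = 0.0217 and 0.0291). Tfam, which packages mitochondrial DNA, fell by 0.12 (limma adjusted p = 0.0368). The call for Polg was lost without any 1 library, that for Esrra without scrambled 1 or 3 or knockdown 2 or 3, and that for Tfam without scrambled 1 or 2 or knockdown 1 or 2. The call for Tfam was also lost after median centring, under quantile normalization, with the trend removed and with the batch block (limma adjusted p = 0.0507), and those for Polg and Esrra were lost in TPM, that for Esrra with limma-voom too. Ppargc1a, the best-known coactivator of the family, was near 0, with at most 0.0709 FPKM in any library.

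**Figure D5:**
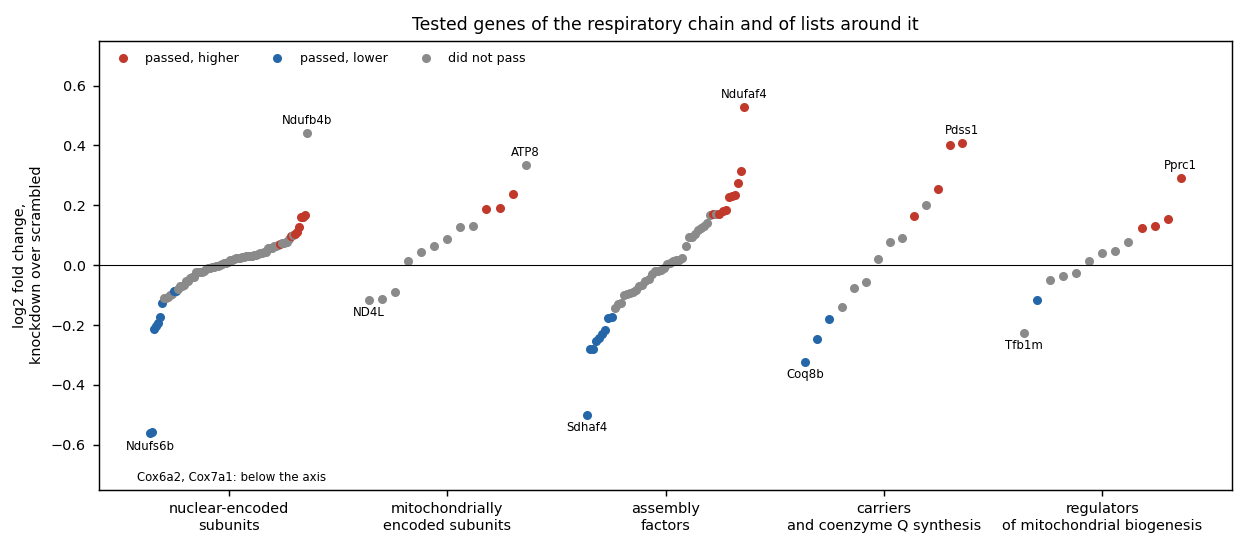
Each point is the log2 fold change (knockdown over scrambled) of a tested gene, ordered within the nuclear-encoded subunits, the mitochondrially encoded subunits, the assembly factors, the carriers with coenzyme Q synthesis, and the regulators, with red and blue for genes that passed; Cox6a2 and Cox7a1 lie below the axis. Most nuclear-encoded subunits lie near 0, and the ends of the other lists include Ndufaf4 at 0.53, Sdhaf4 at −0.50 and Pdss1 at 0.41.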

How the data were processed

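The authors deposited a table of 19877 genes with 1 FPKM value per gene in each of 6 libraries (3 scrambled, 3 knockdown). The submitters' processing notes list GRCm38, mm10 and GRCm39 without their roles; aligner and counting tool: not given in the sources used here. Every gene's values were whole multiples of the worth of 1 fragment (19877 of 19877 genes within 0.002 of a whole number), which gave 40.6, 37.1 and 37.7 M fragments in the scrambled and 36.5, 32.2 and 40.2 M in the knockdown libraries. The lowest tested member averaged 9 fragments.

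Genes with at least 1 FPKM in at least 3 of 6 libraries were compared as log2(FPKM + 0.5) with limma 3.58.1 in R 4.3.3 (variance trend on level, two-sided, Benjamini-Hochberg adjustment over all 10311 tested genes). Such fold changes understate the change of low genes. Errors are SD for FPKM and standard errors for log2 differences. The script was tested on simulated data. Members and lists were chosen with earlier results of these data known. Named genes were, per complex, the 3 of smallest p and the extreme differences, all Sdh genes, tissue-specific paralogues and the c-ring and inhibitor genes, and up to 4 genes of smallest p per other list. Ndufa2, Ndufa13, Ndufb3, Ndufs7, Ndufv1, Ndufs6, Uqcrc1, Atp5a1, Cyc1 and Ppargc1a were named outside that rule, after their values were seen.

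The labels give same-numbered libraries a shared batch, so the number pairs them. The main fit did not use this pairing, and a fit with the batch as a block was run as an alternative. Correlations of the paired libraries' deviations from the group means were 0.09, 0.01 and 0.19. There were 17 alternatives, of which limma-voom on the recovered fragments was chosen after seeing the data. Positions are from GENCODE M21 (GRCm38), in which 81 of 85 members matched by symbol.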

Additional observations from a re-analysis of the deposited data

How the results depend on the processing

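Of the 85 members, the count higher was 5 without the filter on low values, 32 after median centring, 4 after quantile normalization, 4 after conversion to TPM, 1 with the level and length trend removed and 5 without limma's variance trend. The count lower was 21 after conversion to TPM and 25 with the level and length trend removed. With the batch as a replicate block the counts were 7 higher and 11 lower, with 17 of the 19 calls shared. The block changed no other call of a named member than those of Sdhd, Sdhc and Uqcrc2. Leaving out 1 library gave 4 to 10 higher and 8 to 14 lower, with 4 higher without scrambled library 2 and 5 without knockdown library 1. Over all tested genes the count lower was 2042 where a mean of at least 5 FPKM was required, which tests fewer low genes. The fall of Ifit1 held under every alternative that tested it, between −1.51 and −1.09; it was not tested where a mean of at least 5 FPKM was required. Where no construction of the alternative shows it, the cause was not tested.

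Differences near 0 changed sign with scaling. With the level and length trend removed they were −0.052 for Atp5b, −0.038 for Sdhb, −0.057 for Cox5b, −0.087 for Cox6a1, −0.068 for Cox6b1, −0.064 for Cox7b, −0.103 for Atp5g2 and −0.031 for Atp5g3. After quantile normalization they were −0.016 for Sdhb, −0.042 for Cox5b, −0.02 for Cox6a1, −0.071 for Cox6b1, −0.025 for Cox7b, −0.048 for Atp5g2 and −0.029 for Atp5g3. In TPM they were −0.022 for Sdhb, −0.013 for Cox5b, −0.027 for Cox6a1, −0.022 for Cox6b1, −0.037 for Cox7b and −0.039 for Atp5g2. After median centring they were 0.044 for Cox4i1, 0.064 for Cox7a2, 0.043 for Cox8a and 0.064 for Ndufa4. Leaving out 1 library gave −0.00 to 0.051 for Sdhb, −0.001 to 0.045 for Cox6a1, −0.017 to 0.015 for Cox7a2, −0.013 to 0.038 for Cox7b, −0.056 to 0.005 for Cox8a, −0.023 to 0.024 for Ndufa4 and −0.015 to 0.023 for Atp5g2. Depth limits the low paralogues, with 0 to 53 fragments per library for Cox4i2, Cox6a2, Cox6b2, Cox7a1 and Ndufa4l2.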
